A study of Mus musculus with 4 samples.

Results

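Il4-high iNKT2 cells are thymic iNKT2 cells that held at least 5 UMIs of Il4, the gene of interleukin-4. A UMI count is the number of distinct tagged RNA molecules read for a gene in a cell. There were 736 such cells among 15767 kept cells (4.67%), and they were selected by measured values. A cell first had to have at least 500 genes, at least 1000 UMIs and no more than 10% mitochondrial UMIs. It then had to hold a summed count of at least 8 UMIs for Zbtb16, Il17rb, Izumo1r, Plac8 and Icos. That sum had to exceed 2 times the sum of 5 iNKT1 genes (Nkg7, Klrd1, Il2rb, Klrk1 and Xcl1). The sum of 7 iNKT17 genes had to stay under 6 UMIs and that of 6 proliferation genes under 4. These limits left 2865 gated iNKT2 cells, of which the 2129 with under 5 Il4 UMIs served as the Il4-low cells of the same libraries.

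The cells came from the thymus of BALB/c and of B6 mice, both inbred, and each strain has 2 numbered libraries. Where 4 values are given without names, their order is BALB/c 1, BALB/c 2, B6 1, B6 2. The labels name the strain as the genotype and no treatment, allele, age, or number of mice per library. All libraries were made from cells sorted for CD3 and for binding of a CD1d reagent with the glycolipid PBS57, so the sort defines iNKT cells and not their subset. Separate mice are not stated for the libraries of a strain, so p-values over libraries measure a spread that may be partly technical.

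Invariant natural killer T (iNKT) cells carry a nearly fixed TCR alpha chain and recognise lipids presented by CD1d. In the thymus they divide into subsets, of which iNKT2 cells hold high levels of the transcription factor PLZF, encoded by Zbtb16, and make interleukin-4 without prior infection. Il4 lies beside Il13 and Rad50 in the type 2 cytokine locus, where GATA3, c-MAF and NFAT proteins are known to act in T helper 2 cells. NFAT is a calcium-dependent factor that enters the nucleus after TCR signalling, and Nr4a1, Egr2 and Egr3 are genes that the same signal switches on. BALB/c mice are known for a larger thymic iNKT2 compartment than B6 mice.

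The promoters of Il4 and Il13 are shown because both genes were counted here and because Nfatc1 was among the genes that differed most clearly between the Il4 classes. They are the 250 bases before the start of each gene in RefSeq on GRCm38.p6, minus strand of chromosome 11, at chr11:53618666-53618915 for Il4 and chr11:53634703-53634952 for Il13. Capitals mark the letters GGAAA, the core that NFAT proteins bind, and its reverse complement TTTCC.
Il4: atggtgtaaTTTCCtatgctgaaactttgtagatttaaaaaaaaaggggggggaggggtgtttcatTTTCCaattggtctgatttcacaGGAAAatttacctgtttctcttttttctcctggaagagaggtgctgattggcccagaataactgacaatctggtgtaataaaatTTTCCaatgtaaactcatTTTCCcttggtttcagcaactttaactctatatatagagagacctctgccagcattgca
Il13: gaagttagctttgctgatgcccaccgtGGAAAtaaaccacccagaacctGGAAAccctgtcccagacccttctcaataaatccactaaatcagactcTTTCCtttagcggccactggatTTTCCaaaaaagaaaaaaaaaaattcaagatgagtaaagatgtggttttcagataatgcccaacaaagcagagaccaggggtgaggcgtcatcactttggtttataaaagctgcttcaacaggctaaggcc
The Il4 stretch held 5 matches, which 0.390% of 32851 RefSeq promoter stretches of this length reached, and the Il13 stretch held 4, which 1.59% reached. At least 1 match was present in 55.6% of those stretches. A second annotated Il4 start, with the 250 bases at chr11:53617339-53617588, held 0 matches. These matches describe letters of the reference strain and are not measured binding sites.

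The kept cells numbered 1896, 1947, 2378 and 9546, from library totals of 20406245 to 82904358 UMIs. Median UMIs per kept cell ranged from 7056 to 11044.5. B6 2 was counted with Cell Ranger 7.1.0 and the other libraries with 6.0.0, per the file headers. Among kept cells, 102 barcodes occurred in more than 1 library, 11 of them in Il4-high cells. Of the 736 Il4-high cells, 15 were among the barcodes with the highest doublet scores.

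BALB/c 1 and BALB/c 2 gave 238 and 207 Il4-high cells, B6 2 gave 260, and B6 1 gave 31. B6 1 therefore rests on the fewest cells in what follows. Cell shares and TCR segment differences were averaged over libraries without weights, so B6 1 counts there as much as the others. Il4 UMIs per cell had medians of 9, 9, 7 and 8. The highest cells held 106, 71, 32 and 85. Between 5 and 9 UMIs were held by 421 cells, 10 to 19 by 205 and 20 or more by 110. No gap separated the classes: 182 gated cells held 4 Il4 UMIs and 132 held 5. The cells at 4 and at 5 had 16170 and 16223 median UMIs. Il13 stood at 43.6 and 53.4 CPM, its UMI count scaled to a fixed total of all UMIs, in them, Nr4a1 at 48.7 and 50.3, and Cd200 at 28.0 and 33.5. Of the members, 4 lay within 2 UMIs of the gate's lower limit of 8.

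**Figure D1:**
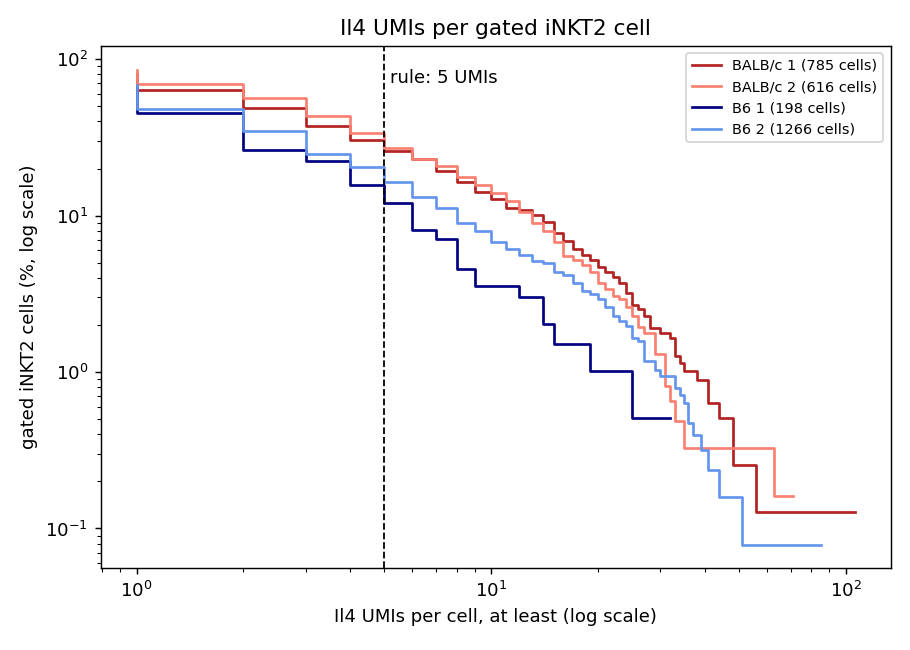
Share of gated iNKT2 cells (y, percent, log scale) that held at least a given number of Il4 UMIs (x, log scale), 1 line per library, with the selection limit dashed. The curves fall smoothly through 5 UMIs, where 30.3% and 33.6% of the BALB/c cells and 15.7% and 20.5% of the B6 cells remain.

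The markers given for these cells were used to select them, so their levels are a description. Zbtb16 stood at 560 CPM (from here on scaled between libraries) in Il4-high against 480 in depth-matched Il4-low cells of BALB/c 1. The pairs were 502 and 465 in BALB/c 2, 388 and 375 in B6 1, and 786 and 626 in B6 2. Icos, a costimulatory receptor, and Izumo1r, the folate receptor family member FR4, were likewise higher in the Il4-high cells of all 4 libraries. Plac8 was lower in BALB/c 1 (154 against 165 CPM) and higher in the other 3. The iNKT1 gene Nkg7 differed by strain rather than by Il4 class, at 2.35, 5.84, 100 and 62.3 CPM in Il4-high cells. Blk, an iNKT17 gene of the selection, stood at 14.4, 7.69, 7.95 and 13.8 CPM in Il4-high cells. In Il4-low cells it was lower in all 4 libraries, at 6.54, 5.09, 1.53 and 5.65 CPM. The other iNKT17 genes of the selection stood at 9.92 CPM or less, and none of them was higher in all 4 libraries. Since these genes chose the cells, their levels are no independent check of the label iNKT2.

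Il4-high cells held 62.8%, 52.3%, 17.6% and 31.3% of the Il4 UMIs of their library's kept cells. Elsewhere, cells with at least 5 Il4 UMIs made up 23.0% of the 988 cycling cells, which have a median of 24839.5 UMIs. They made up 2.56% of 1878 cells with mixed iNKT1 and iNKT2 genes, 2.18% of 550 iNKT17 and 0.388% of 7739 iNKT1 cells. Free RNA in the droplets was gauged in cells that should lack Il4. Double-positive thymocytes (820 cells, median 2725.5 UMIs) held 20 Il4 UMIs in all, and the 25 B cells (median 11481 UMIs) held 0. After each cell was thinned to 5000 UMIs, 55.4% of gated iNKT2 cells had an Il4 UMI, against 21.2% of iNKT1 cells, 7.32% of 82 double-positive thymocytes and 0 of 24 B cells, which allows a share of up to 14.2% by the exact binomial 95% interval.

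Il4-high cells formed a larger share of gated iNKT2 cells in BALB/c than in B6. The share was 30.3% in BALB/c 1 (exact binomial 95% interval 27.1 to 33.7), 33.6% in BALB/c 2 (29.9 to 37.5), 15.7% in B6 1 (10.9 to 21.5) and 20.5% in B6 2 (18.3 to 22.9). These intervals cover counting error only. The strain means were 32.0% ± 2.32 (SD, n = 2) and 18.1% ± 3.45 (SD, n = 2), a difference of 13.9 points, and both BALB/c libraries lay above both B6 libraries. The exact two-sided permutation test gave p = 0.33, the smallest value that 2 against 2 libraries allow. Gated cells of BALB/c were deeper, with medians of 14808, 15254.5, 12341.5 and 12602.5 UMIs. After thinning to 5000 UMIs, with Il4-high taken from 3 UMIs, the shares were 19.4%, 19.3%, 10.9% and 12.2%, and the difference was 7.79 points. Of all kept cells, Il4-high cells made up 12.6%, 10.6%, 1.30% and 2.72% (exact permutation p = 0.33).

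Il4-high cells were deeper than Il4-low cells, with medians of 17223.5, 17691, 18645 and 17569.5 UMIs against 13438, 14167, 11407 and 11076.5. Within each library the classes were therefore matched for total UMIs, which left 226, 194, 31 and 239 cells of each class, with medians of 16992.5 and 16570.5 UMIs in BALB/c 1, for example. UMIs were summed over the cells of a class in a library, and the 8 sums were tested with edgeR's quasi-likelihood test with the library as a term. A gene was called at a Benjamini-Hochberg adjusted p under 0.05. Of 9841 genes tested, 202 were higher in Il4-high cells (2.05%) and 147 were lower (1.49%). Of the 349 genes called, 303 differed by less than 1 on the log2 scale, and the median over all genes was 0.00. The genes of the selection were left out of the tests. The count fell to 117 without BALB/c 1 and 119 without B6 2, was 264 without BALB/c 2 and rose to 418 without B6 1, and DESeq2 called 104.

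The most stable part of this difference can be counted. Under 16 other settings, among them other Il4 limits, thinning, DESeq2 and the removal of each library, 27 of the 349 genes were called in the same direction every time, 24 higher and 3 lower. They were Il13, Il21, Nfatc1, Nr4a1, Egr2, Egr3, Nab2, Ier2, Cd200, Orai1, Vdr, Tiam1, Zfp536, Nos1, Akap6, Prkca, Rilpl2, Srgn, Zfp36l1, Heg1, Rbpms and 3 predicted genes on the higher side, and Itgae, Grap2 and Slco3a1 on the lower. The settings all keep the library as a term. Naming the members of this group that lie outside the naming rule, such as Il21 and Orai1, was decided after their values were seen.

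Il13, the neighbour of Il4 and the other main effector cytokine of type 2 cells, rose most clearly. Il13 stood at 122, 95.8, 114 and 107 CPM in Il4-high cells and at 34.8, 35.5, 64.3 and 28.2 CPM in Il4-low cells. The 2 ranges did not overlap, and the difference was smallest in B6 1. Its log2 fold change was 1.65 (SE 0.10, edgeR adjusted p = 4.8e-10). An Il13 UMI was found in 32.7%, 35.6%, 41.9% and 35.6% of the matched Il4-high cells and in 13.3%, 17.0%, 25.8% and 17.2% of the Il4-low cells. Most Il4-high cells therefore showed no Il13 UMI at this depth. Thinned to 5000 UMIs, the shares were 21.8%, 16.9%, 22.6% and 24.2% in Il4-high and 3.01%, 7.84%, 5.26% and 5.72% in all Il4-low cells. In iNKT1 cells thinned alike they were 0%, 0%, 0.329% and 0.192%.

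Of 12 genes listed as type 2 cytokines and receptors, 3 passed the filter on low counts. Il13 was the one called, where 2.05% of all genes rose and 1.49% fell. Il21, the gene of a cytokine that acts on B cells and T cells, was at 39.8, 31.0, 6.53 and 20.7 CPM in Il4-high and 9.61, 14.6, 11.0 and 5.42 CPM in Il4-low cells. It was higher in 3 of 4 libraries, B6 1 being the exception with 4 and 7 UMIs, at a log2 fold change of 1.57 (SE 0.19, edgeR adjusted p = 1.4e-05). Csf1, the gene of macrophage colony-stimulating factor, stood at 51.5, 58.4, 183 and 81.4 CPM against 13.0, 39.9, 12.5 and 24.2. Its log2 fold change was 1.56 (SE 0.19, edgeR adjusted p = 1.4e-05), and DESeq2 gave an adjusted p of 0.081. Rad50, which lies next to Il13 and holds the locus control region of the type 2 cytokines, was at 41.7, 34.1, 62.1 and 32.5 CPM against 49.6, 39.6, 34.5 and 43.2. It was not called (log2 -0.22, SE 0.11, edgeR adjusted p = 0.43), nor was any of the 7 tested neighbours of the locus.

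**Figure D2:**
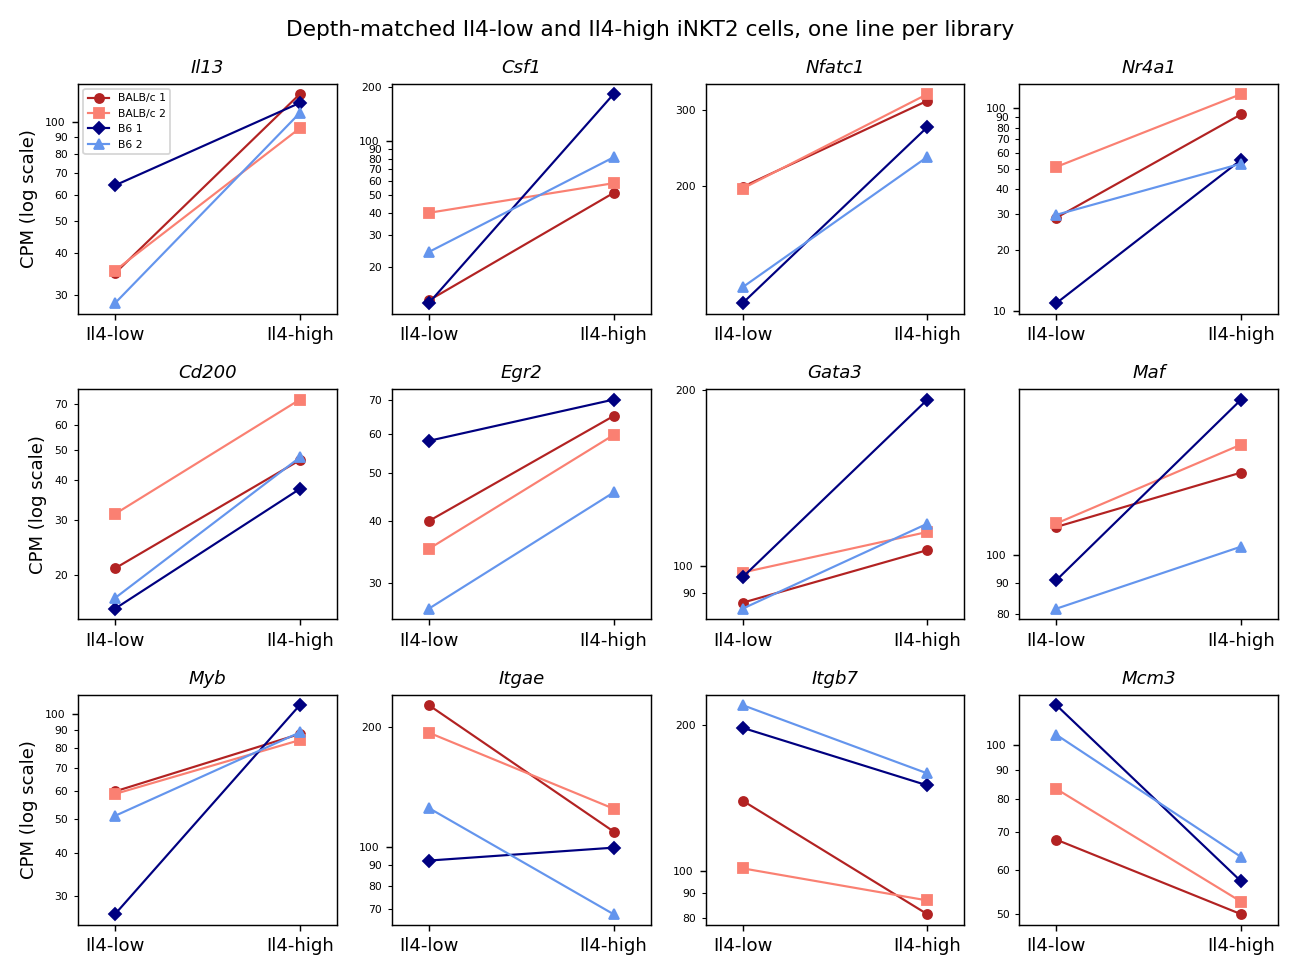
CPM (y, log scale) of 12 genes in depth-matched Il4-low and Il4-high cells, 1 line per library. Il13, Csf1, Nfatc1, Nr4a1, Cd200, Egr2, Gata3, Maf and Myb rise in all 4 libraries, Itgb7 and Mcm3 fall in all 4, and Itgae falls in 3 with B6 1 nearly level.

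Among 25 listed regulators of Il4, all tested, 5 rose and 1 fell, where 2.05% of all genes rose and 1.49% fell. The median log2 fold change of the list was 0.04. Nfatc1, the gene of NFAT2, had the largest difference. It stood at 316, 328, 274 and 234 CPM in Il4-high and 199, 197, 107 and 116 CPM in Il4-low cells, with no overlap, at a log2 fold change of 0.85 (SE 0.07, edgeR adjusted p = 7.5e-08). A UMI of Nfatc1 was found in 83.9% to 92.8% of Il4-high and 74.9% to 88.1% of Il4-low cells, so most cells of both classes held it. Gata3, the master factor of type 2 T cells, was at 106, 114, 193 and 118 CPM against 86.5, 97.5, 95.6 and 84.5 (log2 0.41, SE 0.08, edgeR adjusted p = 0.0034). It lost its call without B6 2 (adjusted p = 0.11) and when other cells were drawn for the depth match (0.077). Maf stood at 137, 153, 181 and 103 CPM against 111, 113, 90.9 and 81.6 (log2 0.41, edgeR adjusted p = 0.0017), and lost its call in unmatched (0.15) and thinned cells (0.45). Junb, an AP-1 subunit, was called at log2 0.30 but was at -0.067 without the depth match, and its call ended without BALB/c 1 (adjusted p = 0.059) and without B6 2 (0.16).

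Tcf7, the gene of TCF-1, was called at log2 0.21 and lost its call without BALB/c 1, BALB/c 2 or B6 2 (adjusted p of 0.25, 0.20 and 0.14). Satb1, a chromatin organiser of T cells, was the regulator that fell, from 320, 368, 414 and 509 CPM in Il4-low to 277, 323, 255 and 397 CPM in Il4-high cells. Its log2 fold change was -0.31 (SE 0.06, edgeR adjusted p = 0.0037), and without B6 2 it was no longer called (adjusted p = 0.12). Irf4, a factor induced by TCR signals, stood at 18.7, 17.6, 31.0 and 25.9 CPM against 20.3, 12.2, 42.3 and 29.1 and was not called (log2 -0.04, SE 0.14, edgeR adjusted p = 0.96). Its sign changed with the setting, and 19 of the 25 regulators were not called, Nfatc2 and Stat6 among them.

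Genes that TCR signals switch on were the list with the most calls. Of 30 listed, 26 were tested, 11 rose and 0 fell, where 2.05% of all genes rose, with a median log2 fold change of 0.39 against 0.00 over all genes. Nr4a1, which encodes the nuclear receptor NUR77 and is a common reporter of TCR signal strength, stood at 92.9, 117, 55.5 and 53.2 CPM in Il4-high cells. In Il4-low cells it stood at 28.8, 51.3, 11.0 and 29.8 CPM. The lowest Il4-high value lay above the highest Il4-low value (log2 1.28, SE 0.11, edgeR adjusted p = 1.0e-07). A UMI of Nr4a1 was present in 38.1%, 39.7%, 32.3% and 31.0% of the Il4-high cells against 14.6%, 21.1%, 19.4% and 15.1%.

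Cd200, a surface glycoprotein that signals to myeloid cells, was at 46.3, 72.1, 37.6 and 47.3 CPM against 21.0, 31.3, 15.7 and 16.9 (log2 1.27, SE 0.11, edgeR adjusted p = 4.1e-08). The groups did not overlap. Egr2 and Egr3 encode zinc finger factors that iNKT cells need for their development. Egr2 stood at 65.1, 59.6, 70.2 and 45.7 CPM against 40.0, 35.2, 58.0 and 26.7, where the Il4-low value of B6 1 exceeded the Il4-high value of B6 2 (log2 0.70, SE 0.09, edgeR adjusted p = 3.9e-05). Egr3 stood at 39.1, 35.0, 60.4 and 23.9 CPM against 26.8, 19.1, 11.0 and 8.13 (log2 1.00, SE 0.16, edgeR adjusted p = 0.00045). Nab2, which is not on this list and encodes a corepressor that EGR proteins induce and bind, rose from 167, 183, 125 and 88.1 to 222, 229, 167 and 137 CPM (log2 0.44, edgeR adjusted p = 0.00017).

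Pdcd1, the gene of the inhibitory receptor PD-1, stood at 369, 331, 286 and 264 CPM against 224, 278, 162 and 140. It rose by 0.64 on the log2 scale (SE 0.08, edgeR adjusted p = 1.4e-05) and lost its call when Il4-high started at 10 UMIs (adjusted p = 0.19). The other called members were Egr1, Cd5, Tnfrsf9, Nfkbid, Dusp2 and Ier2, at log2 values of 0.77, 0.30, 0.78, 0.63, 0.27 and 0.43. Of these only Ier2 was called in all of the 16 other settings. Egr1 was higher in 3 of 4 libraries, with 132 against 215 CPM in B6 1. The remaining 15 were not called. Orai1, also not listed, encodes the pore subunit of the calcium channel that feeds NFAT and stood at 110, 100, 96.4 and 76.4 CPM against 67.8, 76.6, 62.7 and 47.9 (log2 0.59, SE 0.08, edgeR adjusted p = 3.3e-05). The Il4-low value of BALB/c 2 was just above the Il4-high value of B6 2.

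Genes of the dissociation and stress list, which share inducers with the early genes, were tested as well. Of 16 tested, 1 rose and 0 fell, where 2.05% of all genes rose and 1.49% fell, with a median log2 fold change of 0.02. The riser was Zfp36, which encodes an RNA-binding protein that destabilises cytokine messages (173, 155, 144 and 188 CPM against 107, 97.2, 135 and 109, log2 0.67, edgeR adjusted p = 3.8e-06). Its part in the early gene differences was not tested.

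**Figure D3:**
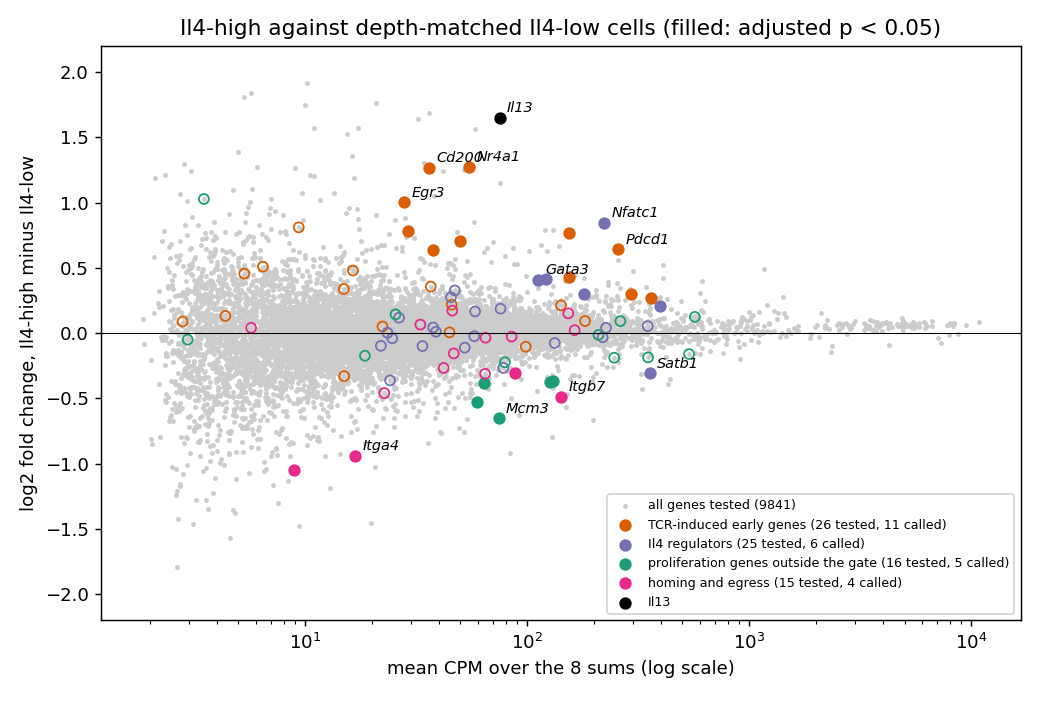
Log2 fold change of Il4-high minus depth-matched Il4-low cells (y) against the mean CPM over the 8 sums (x, log scale), with all 9841 tested genes in grey and 4 gene lists in colour, filled where the adjusted p is under 0.05. Early TCR-induced genes lie mainly above 0 and the called proliferation and homing genes below it; 1 gene lies outside the y range.

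Of 12 largest called rises that met the naming rule, most were genes outside the lists. Nos1, the neuronal nitric oxide synthase, was at 23.2, 17.3, 29.4 and 58.4 CPM against 8.05, 7.75, 9.41 and 13.1 (log2 1.76, SE 0.16, edgeR adjusted p = 1.9e-07). Akap6, an anchor protein of protein kinase A, was mainly a B6 gene, at 9.63, 6.08, 42.5 and 132 CPM against 2.34, 1.79, 20.4 and 42.0 (log2 1.64, SE 0.13, edgeR adjusted p = 1.6e-08). Zfp536, a zinc finger gene, was held by 52.7%, 48.5%, 41.9% and 62.8% of Il4-high against 29.2%, 33.5%, 25.8% and 28.5% of Il4-low cells. It rose by 1.25 on the log2 scale (SE 0.12, edgeR adjusted p = 3.0e-07). Tiam1, an exchange factor of the GTPase RAC1, stood at 39.8, 45.3, 67.0 and 90.0 CPM against 18.2, 23.2, 15.7 and 35.2 (log2 1.24, edgeR adjusted p = 9.4e-08). Vdr, the vitamin D receptor, stood at 39.6, 43.5, 57.2 and 58.4 CPM against 18.4, 24.1, 17.2 and 17.2 (log2 1.30, edgeR adjusted p = 9.0e-07), with no overlap.

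Myo6, which encodes an unconventional myosin, had a log2 fold change of 1.68 (SE 0.13, edgeR adjusted p = 1.6e-08), from 7.53, 14.0, 18.8 and 21.7 to 31.5, 33.5, 96.4 and 66.4 CPM. Its UMIs were concentrated in few cells. The single cell with most of them held 30.6%, 66.4%, 44.1% and 34.6% of the Il4-high UMIs, and a Myo6 UMI was found in 9.73% of Il4-high against 7.08% of Il4-low cells in BALB/c 1 and in 6.19% against 7.73% in BALB/c 2. For Nos1, Tiam1, Vdr and Zfp536 the top cell held at most 22.2% of the Il4-high UMIs in any library. For Il13 it held 10.5% to 22.9%.

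Other iNKT2 genes outside the selection moved in both directions. Of 14 tested, 3 rose and 2 fell, where 2.05% of all genes rose and 1.49% fell. Ccr10, a chemokine receptor, rose from 119, 89.7, 103 and 70.9 to 179, 114, 191 and 179 CPM (log2 0.79, SE 0.10, edgeR adjusted p = 3.1e-05). Hivep3, a zinc finger regulator known from iNKT development, rose from 141, 145, 110 and 123 to 192, 164, 126 and 185 CPM (log2 0.40, edgeR adjusted p = 0.0015), and Cd4 from 122, 131, 59.6 and 80.0 to 142, 155, 88.2 and 129 CPM (log2 0.39, edgeR adjusted p = 0.0040). Without B6 2 neither Hivep3 (adjusted p = 0.13) nor Cd4 (0.25) was called, and without BALB/c 1 Hivep3 was not (0.079). Itga4, the alpha 4 integrin, and Tnfrsf25, the receptor DR3, fell at log2 values of -0.94 and -0.94. Ccr10 lost its call with Il4-high from 10 UMIs (adjusted p = 0.37).

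Among genes of early iNKT stages, 5 of 14 tested rose and 2 fell, where 2.05% of all genes rose and 1.49% fell. Lef1, a partner of TCF-1, stood at 539, 425, 402 and 517 CPM against 343, 359, 284 and 414 (log2 0.42, SE 0.06, edgeR adjusted p = 0.00013). Tox, which T cell development needs, stood at 266, 257, 268 and 614 against 179, 224, 136 and 440 (log2 0.47, edgeR adjusted p = 0.00017). Myb stood at 87.7, 84.3, 106 and 88.6 CPM against 60.0, 59.0, 26.7 and 51.1, with no overlap (log2 0.70, SE 0.10, edgeR adjusted p = 0.00010). Lef1 lost its call in several settings, at log2 values of 0.00 against cells with 0 Il4 UMIs (adjusted p = 1.0), 0.09 and 0.21 with Il4-high from 3 and 10 UMIs (0.71 and 0.68), 0.27 by rate (0.74) and 0.23 when thinned (0.21). Tox lost its call from 10 UMIs (log2 0.31, adjusted p = 0.17) and by rate (0.31, adjusted p = 0.39), and Myb when thinned (0.45, adjusted p = 0.061). Itm2a and Ldhb fell. Sox4 was not called.

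Genes of the other subsets that lie outside the selection were lower where they were called. Of 10 tested iNKT17 genes outside the selection, 4 fell and 0 rose, where 1.49% of all genes fell. The median log2 fold change of this list was -0.19, with 40% of its tested genes above 0. Itgae, the alpha E integrin that pairs with beta 7, stood at 109, 125, 99.6 and 67.9 CPM against 226, 193, 92.5 and 125 (log2 -0.79, SE 0.09, edgeR adjusted p = 3.8e-06). It was lower in 3 of 4 libraries and level in B6 1. Rora, a nuclear receptor of the iNKT17 and innate lymphoid programmes, fell in 3 of 4 libraries (log2 -0.73, edgeR adjusted p = 0.0056), with 36.8 against 98.5 CPM in B6 2, 37.1 against 36.1 in BALB/c 2, and no call without B6 2 (adjusted p = 0.63) or BALB/c 1 (0.058). Aqp3, a water and glycerol channel, and Emb fell at log2 values of -1.30 and -0.32 and also lost their calls without B6 2 (adjusted p of 0.27 and 0.43), Emb also without BALB/c 1 (0.23). Of 14 tested iNKT1 genes, Cxcr3 fell (log2 -0.58) and lost its call without BALB/c 1 (adjusted p = 0.077) or B6 2 (0.079).

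Homing and egress genes had 4 falls and 0 rises among 15 tested, where 1.49% of all genes fell. Itgb7, the partner of Itgae and Itga4, stood at 81.5, 87.0, 150 and 159 CPM against 140, 101, 198 and 220 (log2 -0.49, SE 0.08, edgeR adjusted p = 0.00034). It fell in all 4 libraries, and lost its call with Il4-high from 3 UMIs (log2 -0.25, adjusted p = 0.27) and when thinned (-0.30, adjusted p = 0.28). Itga4 stood at 7.55, 7.91, 27.8 and 9.54 CPM against 13.5, 19.7, 28.2 and 19.9 (edgeR adjusted p = 0.0024), and was not called without B6 2 (0.086). Klf2, a transcription factor of recirculating T cells, fell at a log2 value of -0.31. It lost its call without BALB/c 1 (adjusted p = 0.11), BALB/c 2 (0.092) or B6 2 (0.24).

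Proliferation genes outside the selection had 5 falls and 0 rises among 16 tested, where 1.49% of all genes fell. Mcm3, a subunit of the replicative helicase, stood at 50.0, 52.6, 57.2 and 63.2 CPM against 67.8, 83.5, 118 and 104, with no overlap (log2 -0.65, SE 0.08, edgeR adjusted p = 1.8e-05). Mcm5, Mcm6, Stmn1 and Mcm2 fell at -0.53, -0.36, -0.37 and -0.38. The direction was not kept in all settings. Without the depth match Mcm3, Mcm5, Mcm6 and Stmn1 stood at log2 values of 0.13, 0.14, 0.13 and 0.28, none of them called. Thinned to 5000 UMIs, Mcm3 and Mcm6 stood at -0.16 and -0.15 and Mcm5 and Stmn1 at 0.10 and 0.03, again without a call. The selection had already limited proliferation genes in both classes. The call of Mcm6 ended without BALB/c 1 (adjusted p = 0.12) and without BALB/c 2 (0.093), as did that of Stmn1 (0.12 and 0.075).

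Interferon response genes had 4 falls (Ifit1, Rtp4, Slfn8 and Parp14) and 0 rises among 28 tested, and each of the 4 lost its call without B6 2 (adjusted p of 0.18, 0.25, 0.32 and 0.27) and without BALB/c 1 (0.096, 0.59, 0.33 and 0.19). Ifit1, Rtp4 and Slfn8 lost theirs without BALB/c 2 too (0.22, 0.18 and 0.11), and Ifit1 without B6 1 (0.052). Of 28 secretory pathway genes, 1 rose (Ssr4, log2 0.22), and this call ended without BALB/c 1, BALB/c 2 or B6 2 (adjusted p of 0.20, 0.089 and 0.17). Xbp1, the factor that expands the secretory pathway, stood at 81.0, 73.0, 62.1 and 87.7 CPM against 68.6, 69.1, 48.6 and 66.2 (log2 0.26, edgeR adjusted p = 0.080). Among 14 glycolysis genes, 11 amino acid supply genes and 13 mitochondrially encoded genes tested, 0 were called. Outside the interferon list, these shares lie near those over all genes, of which 2.05% rose and 1.49% fell. The interferon list had a median log2 fold change of -0.18, with 17.9% of its tested genes above 0 against 49.9% of all genes.

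Over the libraries, the ranges of summed markers of other cell types overlapped between the Il4 classes, but these ranges also span the strains. Within libraries, the double-positive thymocyte sum was 54.0, 49.2, 50.8 and 122 CPM in Il4-high against 86.6, 49.7, 64.8 and 142 in Il4-low cells. It was thus lower in the Il4-high cells of every library, though nearly level in BALB/c 2. The basophil and mast cell sum was 20.4, 16.4, 30.2 and 29.7 against 11.0, 17.1, 25.3 and 23.6 CPM. This list and those that follow, apart from the double-positive list, differed in direction between libraries. The summed basophil and mast cell list of 10 genes lay between 16.4 and 30.2 CPM in Il4-high and 11.0 and 25.3 CPM in Il4-low sums, with Mcpt8, Fcer1a, Ms4a2, Gata2 and Prss34 at 0 in all. The B cell list lay at 16.9 to 85.8 against 23.0 to 92.9 CPM, with Ms4a1, Pax5, Ighd and Iglc2 at 0. Of its 2 tested genes Ighm fell (log2 -0.65, edgeR adjusted p = 0.0013), where 1.49% of all genes fell. Myeloid genes summed to 102 to 144 against 90.1 to 137 CPM, double-positive thymocyte genes to 49.2 to 122 against 49.7 to 142, and regulatory T cell genes to 701 to 754 against 599 to 773. The gamma-delta T cell list lay at 702 to 1142 against 471 to 1210 CPM. Of its 6 tested genes 3 rose, where 2.05% of all genes rose. These were Sox13, Tcrg-C4 and Trgv2, at log2 values of 0.54, 0.37 and 0.24. Sox13 and Tcrg-C4 lost their calls without BALB/c 1 (adjusted p of 0.41 and 0.061) or B6 2 (0.24 and 0.43). The part of these cells in the results was not tested.

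The Il4 count was also followed in steps across gated cells without a depth match, for genes chosen after the comparison had been seen. Il13 stood at 10.0, 27.4, 54.5, 101 and 308 CPM, unscaled, in cells of BALB/c 1 with 0, 1 to 4, 5 to 9, 10 to 19 and 20 or more Il4 UMIs. In B6 2 it stood at 3.13, 28.9, 84.0, 91.3 and 317. In BALB/c 2 the values were 10.2, 36.5, 60.8, 100 and 174. Il13 thus differed among the Il4-high cells as well as between the classes. Nr4a1 went from 31.0 to 192 in BALB/c 1, from 24.6 to 171 in BALB/c 2 and from 26.3 to 99.3 in B6 2 between the lowest and the highest step, and Cd200 from 16.8 to 71.1, 24.6 to 88.9 and 14.3 to 104. Itgae went the other way, from 257 to 78.6, 202 to 65.8 and 208 to 46.0. B6 1 had 5 and 2 cells in its upper steps. Depth moved with the steps, with median UMIs of 12020 and 18772 in the lowest and the highest step of BALB/c 1, and its part was not tested here.

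**Figure D4:**
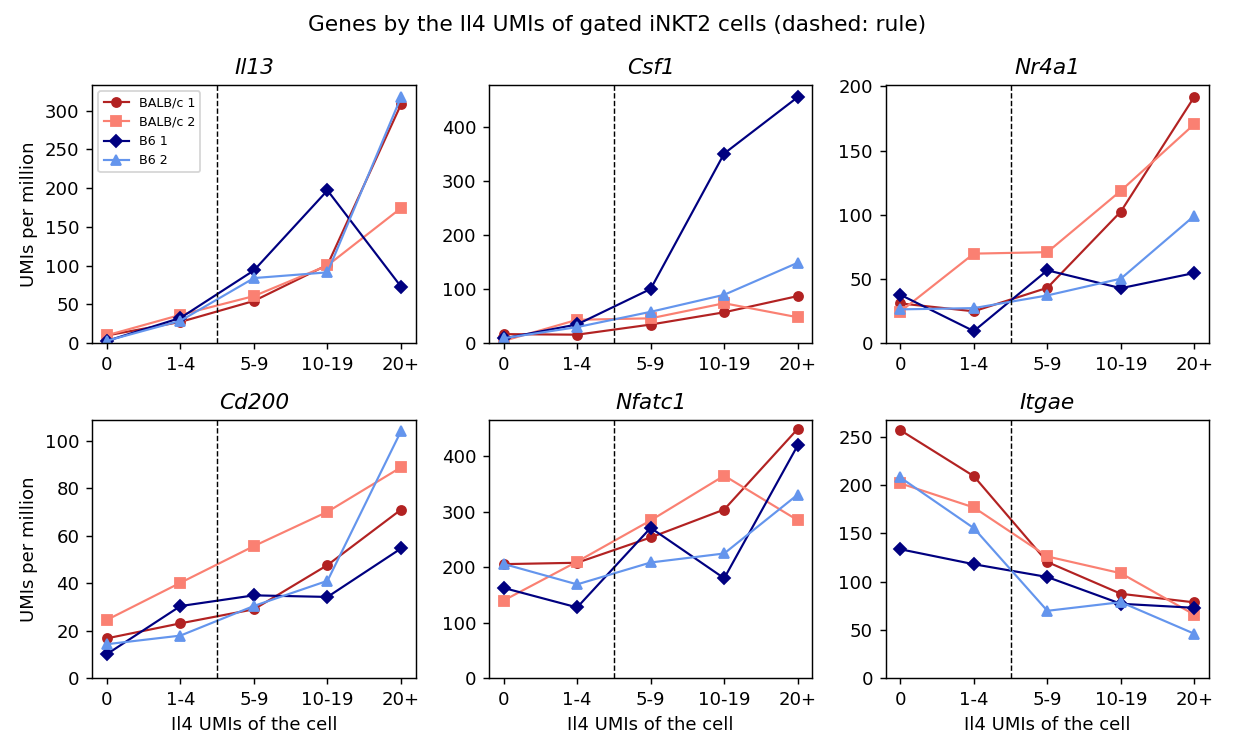
Unscaled CPM (y) of 6 genes in gated iNKT2 cells grouped by their Il4 UMIs (x), 1 line per library, with the selection limit dashed. Il13, Nr4a1 and Cd200 are higher and Itgae lower in the highest step than at 0 Il4 UMIs in all 4 libraries; B6 1 has 5 and 2 cells in its last 2 steps.

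The Il4-high cells of the strains were compared over the 4 libraries. This asks whether BALB/c and B6 cells selected by the same lower limit of Il4 UMIs are alike in other genes. The Il4 count above that limit was not matched between the strains. Its medians were 9 and 9 UMIs per cell in BALB/c 1 and 2, and 7 and 8 in B6 1 and 2. The part of the Il4 count in the strain differences was not tested. Of 10079 genes tested, 326 were higher in BALB/c (3.23%) and 482 were lower (4.78%) by edgeR at an adjusted p under 0.05. Of these 808 genes, 793 had libraries that did not overlap between the strains, which was so of 49.4% of all genes tested. Without B6 2, the library counted with the later software version, 726 of the 808 genes were tested. Of these 717 kept their direction and 9 had the opposite one, and the genes called were only partly the same. Without BALB/c 1, BALB/c 2 or B6 1, 0 of the 808 had the opposite direction. The number of genes called changed strongly when libraries were left out, as given at the end.

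In what follows the pair of BALB/c values comes before the pair of B6 values. None of the 4 tested type 2 cytokine and receptor genes was called. Il13 stood at 119, 95.2, 113 and 117 CPM in the Il4-high cells, or 107 ± 16.6 (SD, n = 2) against 115 ± 2.81 (SD, n = 2). Its log2 fold change, BALB/c minus B6, was -0.11 (SE 0.14, edgeR adjusted p = 0.72), and its sign changed with the setting. Of the 25 regulators of Il4, 1 was called, where 3.23% of all genes tested were higher in BALB/c and 4.78% lower. This count lies near the share over all genes. The gene called was Runx3, a repressor of Il4 in T helper 1 cells, at 62.4 and 74.1 CPM against 38.7 and 32.5 (log2 1.01, SE 0.16, edgeR adjusted p = 0.0078). Nfatc1 stood at 312 and 326 against 271 and 217 CPM and was not called (log2 0.41, edgeR adjusted p = 0.13), but was without B6 1 (3.4e-08). Runx3 was not called without BALB/c 1 (adjusted p = 0.10) or BALB/c 2 (0.23).

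Early TCR-induced genes had 2 rises and 1 fall among 27 tested, where 3.23% of all genes tested were higher in BALB/c and 4.78% lower. Nr4a1 was higher in BALB/c, at 90.8 and 107 CPM against 54.8 and 47.5 (log2 1.00, SE 0.15, edgeR adjusted p = 0.0064). The inhibitory receptor gene Lag3 stood at 32.2 and 25.2 against 16.1 and 5.38 CPM (log2 2.06, SE 0.37, edgeR adjusted p = 0.014). Neither gene was called without BALB/c 1 (adjusted p of 0.071 and 0.23) or BALB/c 2 (0.12 and 0.053), and Lag3 was not called without B6 2 (0.27). In thinned cells Nr4a1 stood at a log2 value of 0.56 (adjusted p = 0.28). Id3, an inhibitor of E proteins, was at 917 and 811 CPM against 511 and 480 (log2 0.80, SE 0.13, edgeR adjusted p = 0.0095), and was not called without BALB/c 1 (0.28) or BALB/c 2 (0.12).

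RNA of iNKT1 genes was present in the B6 cells although the selection limits this programme. Of 17 tested iNKT1 genes outside the selection, 12 were lower in BALB/c and 0 higher, where 4.78% of all genes tested were lower. The median log2 fold change was -3.49 against -0.02 over all genes. Cxcr3, a chemokine receptor, stood at 5.76 and 8.48 against 80.6 and 61.3 CPM (log2 -3.24, SE 0.24, edgeR adjusted p = 0.00023). Zfp683, the gene of the residency factor HOBIT, stood at 3.12 and 3.01 against 38.7 and 33.6 CPM (log2 -3.49, SE 0.25, edgeR adjusted p = 0.00019). Hopx had 1 UMI in BALB/c and 158 in B6, a ratio of 234 with a counting interval of 41.4 to 9293. Members almost without counts in BALB/c passed the filter on low counts through B6, so the filter partly fixed the direction of this list. The selection limits its 5 iNKT1 genes relative to its iNKT2 sum, whose medians were 32, 34, 46 and 54 UMIs per cell. Median sums of the 5 iNKT1 genes of the selection were 1, 1, 3 and 2 UMIs per cell, and iNKT1 cells numbered 283, 586, 1402 and 5468 among the kept cells. The part of RNA from those cells was not tested.

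Markers of other cell types also differed between these libraries. Of all genes tested, 3.23% were higher in BALB/c and 4.78% were lower. The summed B cell list stood at 16.9, 21.0, 85.8 and 61.0 CPM in the matched Il4-high cells, with Ms4a1, Pax5, Ighd and Iglc2 at 0. Its 2 tested genes, Ighm and Cd74, were both lower in BALB/c (log2 -1.75 and -1.78, edgeR adjusted p of 0.0055 and 0.039). Of 4 tested double-positive thymocyte genes Themis was lower, at 8.88 and 9.30 against 12.9 and 62.3 CPM (edgeR adjusted p = 0.017). Of 2 tested myeloid genes Fcgr3 was higher, at 3.12 and 3.28 against 0 and 0.19 CPM (edgeR adjusted p = 0.019). Fcgr3 rested on 13 and 12 UMIs against 0 and 1, so it passed the filter on low counts through BALB/c. Summed gamma-delta markers stood at 1142, 909, 724 and 702 CPM, with Trdv4 at 0. Of the 6 tested, Tcrg-C1, Tcrg-C2 and Sox13 were higher in BALB/c (log2 0.84, 1.21 and 1.72, edgeR adjusted p of 0.0061, 0.031 and 0.0043).

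Apart from Fcgr3, each of these genes lost its call without BALB/c 1, with adjusted p of 0.061 for Ighm, 0.33 for Cd74, 0.18 for Themis, 0.17 for Tcrg-C1, 0.29 for Tcrg-C2 (log2 0.72) and 0.059 for Sox13. Themis and Tcrg-C1 also lost theirs without BALB/c 2 (0.10 and 0.10). Without B6 2 Themis stood at a log2 value of -0.51 and, like Fcgr3, was not called (adjusted p of 0.72 and 0.32). The part of these cells in the strain differences was not tested.

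Of 28 interferon response genes, 14 were called lower in BALB/c and 0 higher, where 4.78% of all genes tested were lower. The median log2 fold change of the list was -0.66. Ifit1 stood at 19.5 and 12.9 CPM against 41.9 and 42.9 (log2 -1.39, SE 0.23, edgeR adjusted p = 0.010). Without BALB/c 1 or BALB/c 2 Ifit1 was not called (adjusted p of 0.052 and 0.17). A member almost without counts in BALB/c was Oasl2, with 3 UMIs there and 243 in B6, so it passed the filter on low counts through B6. Among the largest falls outside the list, Trim12a and Oas1a had 0 UMIs in BALB/c and 364 and 287 in B6, at least 180-fold and 142-fold lower when BALB/c is set at 3 counts over the group. In the other direction Gfra4 had 343 UMIs in BALB/c and 0 in B6, at least 77.3-fold higher. Reads were counted against a single reference, the build mm10, for both strains, and the part of strain sequence differences was not tested.

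Homing and egress genes had 1 rise and 7 falls in BALB/c among 15 tested, where 3.23% of all genes tested were higher and 4.78% lower. Ccr9, the receptor for a thymic and gut chemokine, stood at 12.2 and 14.2 CPM against 135 and 79.8 (log2 -2.86, SE 0.26, edgeR adjusted p = 0.00060). Itgb7 stood at 80.7 and 85.3 against 148 and 152 CPM (log2 -0.86, edgeR adjusted p = 0.0050) and Ccr2 at 39.4 and 45.9 against 77.4 and 89.8 CPM (log2 -1.02, edgeR adjusted p = 0.0049). Neither of these 2 was called without BALB/c 1 (adjusted p of 0.21 and 0.19) or BALB/c 2 (0.12 and 0.054). Nt5e, which encodes the surface enzyme CD73, stood at 4.80 and 9.30 against 50.0 and 61.1 CPM (log2 -3.06, SE 0.28, edgeR adjusted p = 0.00064). Heat shock genes of the stress list were higher in BALB/c, with 7 of 17 called up and 2 down, for example Hsph1 at 190 and 250 against 72.6 and 103 CPM (log2 1.24, edgeR adjusted p = 0.0075), not called without BALB/c 2 (0.057).

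**Figure D5:**
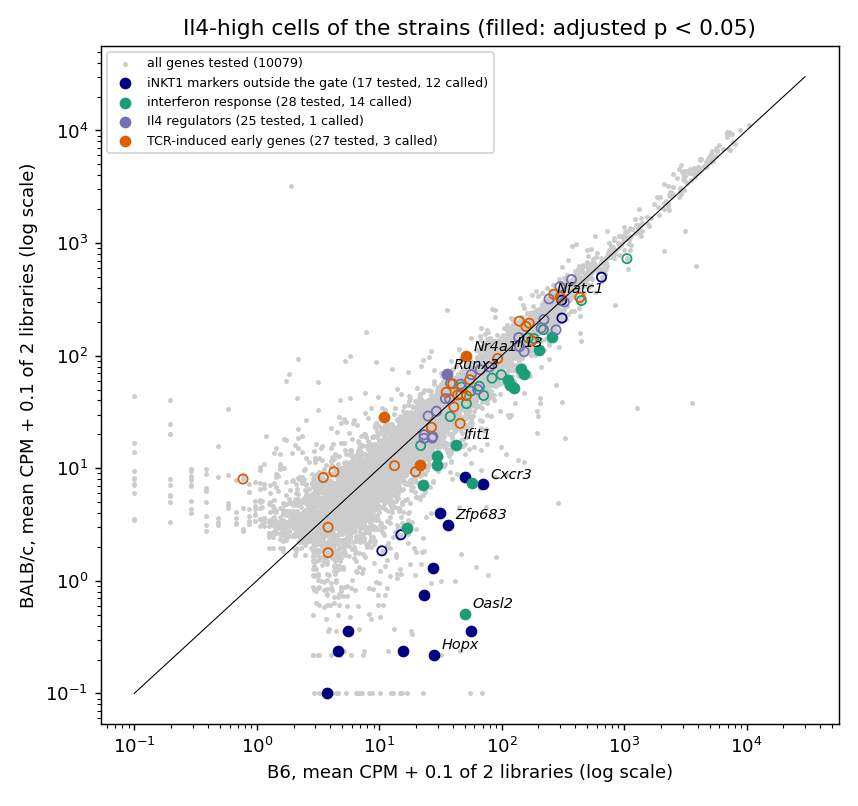
Mean CPM plus 0.1 of Il4-high cells in the 2 BALB/c libraries (y) against the 2 B6 libraries (x), both log scales, with all 10079 tested genes in grey and 4 gene lists in colour, filled where the adjusted p is under 0.05. Called iNKT1 and interferon response genes lie below the diagonal, and Il13 and most regulators of Il4 lie near it.

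Whether the difference between Il4 classes differed between the strains was tested directly. Of 10535 genes tested, 2 were called (0.019%), with 454 at an unadjusted p under 0.05, and DESeq2 called 0 with 48 at an unadjusted p under 0.05. Rora came nearest among genes of known T cell function, at a log2 difference of 1.12 (SE 0.21, edgeR adjusted p = 0.10), followed by Ccr10 at -0.75 (SE 0.15, edgeR adjusted p = 0.13). Ccr10 stood at 120 against 179 and 89.9 against 115 CPM in the Il4-low and Il4-high cells of BALB/c, and at 103 against 190 and 70.6 against 178 in B6 in this fit. Without B6 1 both were called (adjusted p of 0.0033 and 0.0084).

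TCR beta segments were compared in matched cells whose most abundant Trbv segment had at least 2 UMIs. Trbv13 segments, the mouse Vbeta8 family that iNKT cells favour, were used by 67.4%, 64.9%, 53.3% and 59.5% of Il4-high cells and 67.4%, 58.3%, 71.0% and 62.4% of Il4-low cells. The mean difference was -3.50 points ± 10.2 (SD, n = 4 libraries, exact two-sided sign-flip permutation p = 0.75). Trbv29, the Vbeta7 segment, was used by 18.6%, 15.2%, 23.3% and 30.4% against 16.7%, 13.5%, 22.6% and 19.8%. It was higher in 4 of 4 libraries by a mean of 3.69 points ± 4.60 (SD, n = 4, exact permutation p = 0.13, the smallest that 4 pairs allow). Trbv1 differed by -0.42 points (exact permutation p = 0.88). Adjusted over the 3 segments by Benjamini-Hochberg, these permutation p-values were 0.88, 0.38 and 0.88.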

How the data were processed

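RNA of sorted thymic iNKT cells was read from its 5' end with droplet libraries, per the labels' protocols. The values are raw UMI counts by gene and barcode, 1 matrix a library, as deposited by the authors without normalization. Cell Ranger 7.1.0 and the build mm10 are named in the submitters' processing notes, while the file headers give 6.0.0 for 3 libraries and 7.1.0 for B6 2. The sources used here do not say how intronic reads were treated. Library totals ranged from 20406245 to 82904358 UMIs.

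Cells were kept and gated as the report's opening states. Scrublet in scanpy 1.11.5 ranked doublets (0.8% per 1000 barcodes), which stayed in except in an alternative. Il4-low cells were matched within libraries in bins of 0.1 log10 UMIs, taken in barcode order. UMI sums went into edgeR 4.0.16 (R 4.3.3, glmQLFTest after TMM and filterByExpr) with Benjamini-Hochberg adjustment, and with DESeq2 1.42.0 as an alternative. The classes were compared with the library as a term, the strains without one. The procedure was tested on simulated data. Each SE comes from the fold change and its F statistic. CPM are TMM-scaled. Selection genes stayed in library sizes and out of tests. Shares were compared by exact permutation.

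Members and gene lists were chosen with earlier results of these data known. Named were the called members of the type 2 cytokine and Il4 regulator lists with Il13, Gata3, Maf, Nfatc1 and Irf4, up to 4 members of lowest p of other lists, and the largest called changes at 20 CPM or more, 12 each way between Il4 classes and 8 between strains, with the same direction in all libraries or no overlap. For the interaction the 4 of lowest p each way were taken. TCR and immunoglobulin segments, H2, Xist, Tsix, Y-linked and predicted genes were skipped. Of the genes that met the rule, those of most interest are described. Called list members beyond the rule are named as part of their counts. 1 called member of the homing list is not reported here.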

Additional observations from a re-analysis of the deposited data

Results flagged for a closer look

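For Akr1c18, which encodes a hydroxysteroid dehydrogenase, the difference between Il4-high and Il4-low cells differed between the strains by the interaction test (log2 -4.44, BALB/c minus B6, SE 0.65, edgeR adjusted p = 0.0061). In library order (BALB/c 1, BALB/c 2, B6 1, B6 2), matched Il4-high cells held 0, 76, 0 and 208 UMIs and the Il4-low cells 64, 118, 0 and 24. The 208 UMIs of B6 2 came from 6 of 239 cells, and 1 of these held 64.4% of them. Without B6 2 the difference was -1.31 (adjusted p = 1.0).

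For Trbv31, a TCR beta segment named after its value was seen, the same test gave -3.09 (SE 0.41, edgeR adjusted p = 0.0020). Its UMIs in Il4-high cells were 14, 63, 31 and 140 and in Il4-low cells 35, 262, 0 and 78. They came from 4, 10, 1 and 8 Il4-high and 3, 13, 0 and 7 Il4-low cells. Without BALB/c 2 the difference was -2.66 (adjusted p = 0.13), and DESeq2 called neither gene.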

How the results depend on the processing

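Between Il4 classes, 349 genes were called. The count was 873 without the depth match, 140 and 123 with Il4-high from 3 or 10 UMIs, 112 with a rate of 5 Il4 UMIs per 10000, 127 in cells thinned to 5000 UMIs, 149 against cells with 0 Il4 UMIs and 104 by DESeq2. Leaving out each library gave 117 to 418. With no replicate block (the library not a term) edgeR called 0 genes, with 307 at an unadjusted p under 0.05. Of the 349 genes, 24 had the opposite direction without the depth match and 19 after thinning. Unmatched, Junb was at -0.067, Mcm3 at 0.13, Mcm5 at 0.14, Mcm6 at 0.13 and Stmn1 at 0.28. Thinned, Mcm5 was at 0.10, Stmn1 at 0.032 and Klf2 at 0.058. Rad50 was at 0.017 with Il4-high from 10 UMIs. Irf4 was at 0.17 unmatched, 0.12 with other cells drawn, 0.19 and 0.19 from 3 and 10 UMIs, 0.23 by rate, 0.35 thinned and 0.27 against 0 Il4 UMIs, and -0.19 to 0.049 when libraries were left out. The genes tested numbered 7009 after thinning, 8922 with Il4-high from 10 UMIs and 9851 from 3 UMIs, against 9841. The cause of these changes was not tested.

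Between strains, 808 genes were called, 216 after thinning, 291 by DESeq2, 1725 without the filter on low counts and 119 to 3012 when libraries were left out. Replicate numbers of the strains share only a number (correlation of deviations -0.015 over 5595 genes). A replicate block gave 534. The Il13 strain difference was 0.0085 after thinning and -0.27 to 0.052 when libraries were left out. The interaction called 14 genes without the depth match, 0 by DESeq2 and 4 to 45 when libraries were left out.

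The difference in share between strains stayed above 0 in every setting run, at 7.79 to 22.3 points. The share of all kept cells and the count of genes called in every setting were added after the data were seen. Where a strain is left with 1 library, that library is assumed to vary like the others. The Trbv13 difference ran from -6.86 to 1.21 points when libraries were left out. The number of cells limits B6 1 most, with 31 Il4-high cells.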
